A study of Homo sapiens with 12 samples.

Results

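The NRF2 pathway and glutathione genes are a set of 41 genes, chosen by name from the 57187 genes of the count table of 4 human cancer cell lines transfected with *SIVA-WT*, *SIVA-D160N* or neither. The set holds NRF2 and its repressor, the enzymes that make and use glutathione, and thioredoxin and peroxiredoxin genes. It also holds enzymes of NADPH supply and of the pentose phosphate pathway, aldo-keto reductases and 2 efflux transporters. All 41 genes had 1 row each. Of these, 38 had enough counts to be compared between conditions and 40 had enough to be compared between lines. *SRXN1* was tested in neither, and *GPX2* and *GSTM1* were tested between lines only.

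NRF2, the product of *NFE2L2*, is a transcription factor that the adaptor KEAP1 marks for degradation in resting cells. Oxidants and electrophiles modify KEAP1, NRF2 then accumulates, pairs with small MAF proteins and binds antioxidant response elements (AREs) in the promoters of detoxification genes. In several carcinomas the pathway is constantly active, with high levels of *NQO1*, of glutathione synthesis genes and of the AKR1B10 and AKR1C reductases.

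The lines came from breast carcinoma (MDA-MB-231, HCC1954) and ovarian carcinoma (OVCAR8, SKOV3). For every line there were 3 libraries, from control cells, from cells transfected with *SIVA-WT* and from cells transfected with *SIVA-D160N*, which carries an amino acid substitution in SIVA, a regulator of apoptosis. The control cells are called EV (empty vector) by the study, while the sample labels call them parental and untreated, and the transfectants were selected with hygromycin according to the labels. The study describes a CMV promoter for its SIVA vectors, and it calls the transfectants of HCC1954, OVCAR8 and SKOV3 polyclonal. For MDA-MB-231 this is not given in the sources used here. *SIVA1* had 0 counts in the HCC1954 EV library, 1646 in its *SIVA-WT* library and 930 in its *SIVA-D160N* library, while the EV libraries of the other lines had 1272 to 2419.

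Total counts ran from 35791455 to 45890398 per library. Levels are given as CPM (counts scaled to library size and TMM factor), in the order EV, *SIVA-WT*, *SIVA-D160N*. A count of 0 allows a level of up to 0.0666 to 0.0852 CPM depending on the library, a limit that covers counting error only. In the fits across lines the 4 lines were the replicates of a condition (n = 4), the 3 libraries of a line were its replicates in the comparison of lines (n = 3), and the p-values measure the spread between these libraries. Defining markers were read for each line. *ERBB2* had 5706 to 12126 CPM in HCC1954 and SKOV3 and 32.2 to 77.4 CPM in the other lines, *CDH1* was above 1 CPM only in HCC1954, and *PAX8* had 60.6 to 242 CPM in the ovarian lines and at most 3.44 CPM in the breast lines. The other ovarian markers did not follow the labelled tissue, since *MUC16* had 65.6 to 114 CPM in HCC1954 and at most 1.57 CPM elsewhere, and *WT1* had 5.49 to 8.01 CPM in HCC1954 and OVCAR8 and at most 1.10 CPM in MDA-MB-231 and SKOV3. The other epithelial markers were not limited to HCC1954. In OVCAR8, *KRT8* had 1694 to 2028 CPM, *KRT18* 1119 to 1428 CPM and *EPCAM* 18.5 to 21.1 CPM, and *KRT19* was highest in MDA-MB-231 with 64.1 to 90.0 CPM. Of the breast lineage genes, *GATA3* had 42.3 to 49.4 CPM and *ESR1* 7.35 to 12.2 CPM in HCC1954, both at most 2.85 CPM in MDA-MB-231. *GATA3* had 5.63 to 6.24 CPM in OVCAR8, and *TFAP2B* had at most 5 counts in any library. Among markers of other cell types, the endothelial gene *PECAM1* had 32.4 to 62.3 CPM in HCC1954.

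The promoters of the genes were searched for the ARE core TGACNNNGC on both strands, from 250 bases before to 50 bases after the gene start in RefSeq sequence of GRCh38.p14. Of 33 genes with a promoter entry, 9 (27.3%) held it, against 13.6% of all 27305 promoters. The AP-1 site TGACTCA, which can overlap the ARE core, was found in 3 (9.09%) of the 33 and in 4.92% of all. The windows below are shown because they give the DNA letters by which NRF2 targets are usually recognised. *GSTM1*, *GSTA4* and *GSTO1* held the core as well, and their windows are not shown. *ME1* and *TXNRD1* each held a further match, at 11 to 19 and at -8 to 0, which is not shown either. The windows are read on the strand of the gene, and capitals mark the ARE core or its reverse complement. Positions count from the gene start, which is 0.
*GCLM*, chr1:93909446-93909474, minus strand, core at -34 to -26: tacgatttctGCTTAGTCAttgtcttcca
*PGD*, chr1:10398853-10398881, plus strand, core at -201 to -193: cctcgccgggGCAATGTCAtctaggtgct
*ME1*, chr6:83431170-83431198, minus strand, core at -137 to -129: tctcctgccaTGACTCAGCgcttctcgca
*GSTP1*, chr11:67583736-67583764, plus strand, core at -66 to -58: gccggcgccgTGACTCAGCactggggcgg
*TXNRD1*, chr12:104215670-104215698, plus strand, core at -99 to -91: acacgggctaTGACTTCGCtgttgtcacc
*GPX2*, chr14:64942849-64942877, minus strand, core at -122 to -114: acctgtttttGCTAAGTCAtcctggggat
The *ME1* and *GSTP1* windows read TGACTCAGC, which holds the AP-1 letters as well. A match is a description of the letters and no evidence of binding in these cells.

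The genes differed far more between lines than between conditions. HCC1954 had the highest mean level of 21 of the 40 tested genes, MDA-MB-231 of 8, SKOV3 of 6 and OVCAR8 of 5. The same count was not made over all genes, so it is a description. By the calls given below, HCC1954 also had the largest share of all genes higher than in each other line (8.13%, against 3.1% to 5.77%). A gene was called different between 2 lines when its FDR (Benjamini-Hochberg adjusted p, edgeR's quasi-likelihood test) was under 0.05 and its log2 fold change was 1.5 or more in either direction. By this rule 18 of 40 genes differed between HCC1954 and OVCAR8, where 34.3% of all genes tested did. The counts were 16 between HCC1954 and SKOV3 (32.7% of all genes), 15 between MDA-MB-231 and HCC1954 (32.9%), 14 between MDA-MB-231 and SKOV3 (29.4%), 12 between OVCAR8 and SKOV3 (31%) and 11 between MDA-MB-231 and OVCAR8 (26.2%). The 12 include *GSTM1*, which had 3, 1 and 1 counts in OVCAR8 and 0 in SKOV3 and cannot be told from absent in either line. In at least 1 pair 26 genes (65%) were called, against 58.6% of all genes, and the shares of members were thus near those of all genes. All 4 aldo-keto reductases, both transporters, 7 of 8 cytosolic and mitochondrial glutathione transferases and none of the 5 tested thioredoxin and peroxiredoxin genes were among them.

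**Figure D1:**
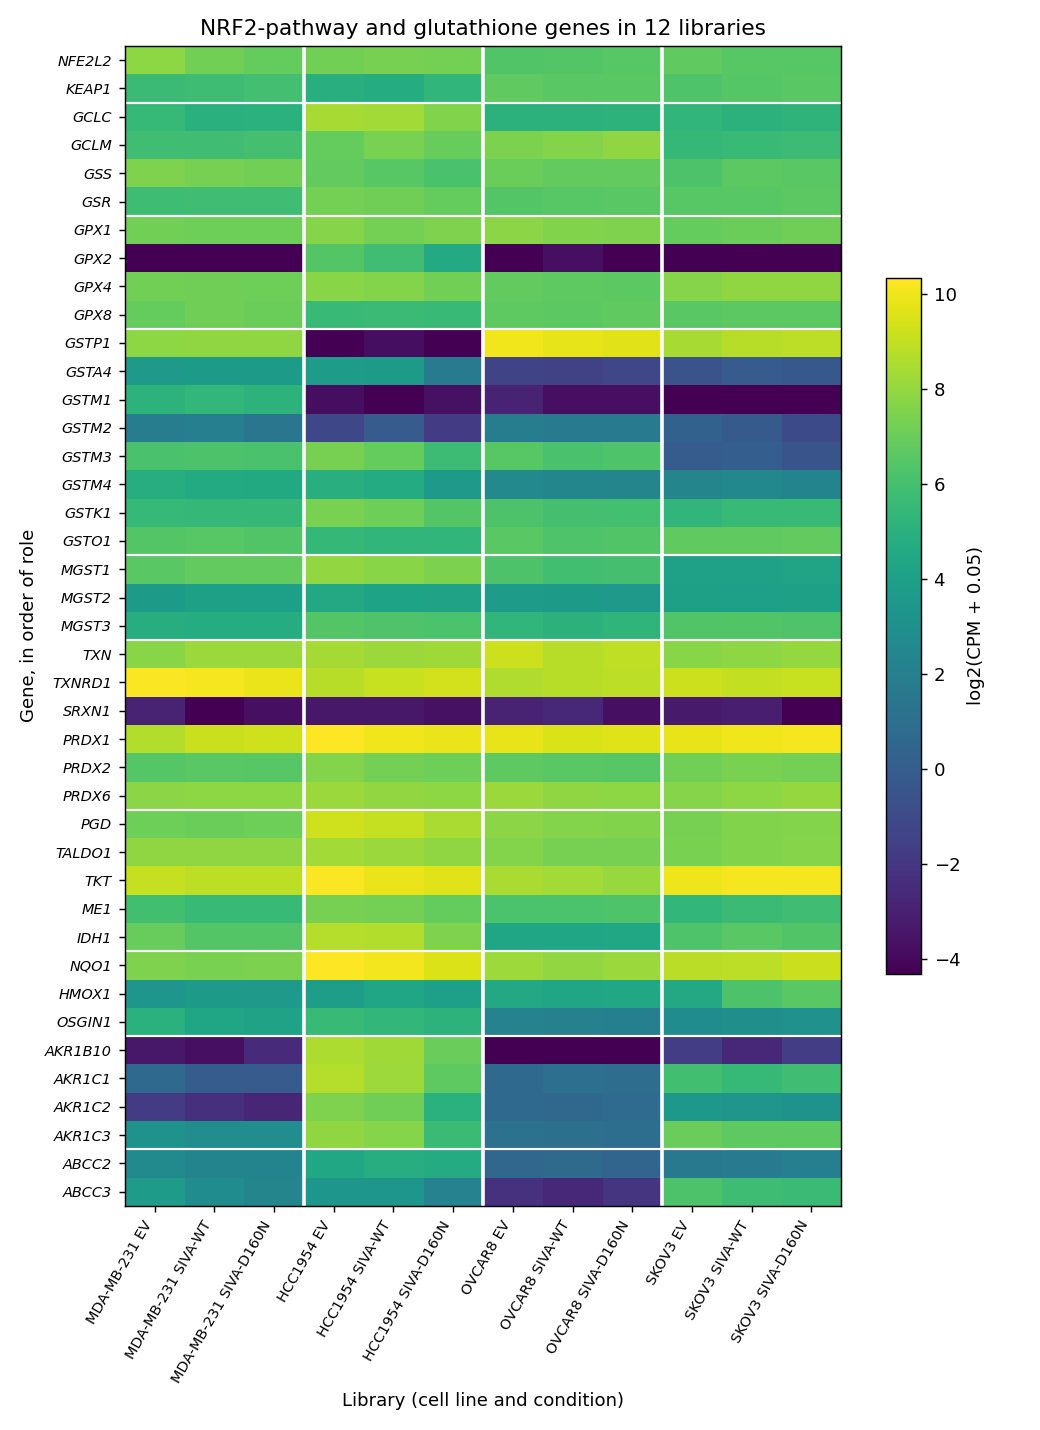
Level of the 41 genes in the 12 libraries as log2(CPM + 0.05), with genes in order of role (white horizontal lines) and libraries grouped by cell line (white vertical lines). The 3 libraries of a line resemble each other, and *GSTP1*, *AKR1B10*, *GPX2* and *GSTM1* have the widest range of line means.

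HCC1954 was called higher than each of the other 3 lines in 7 of 40 genes (17.5%), against 8.13% of all genes. They were *ABCC2*, *AKR1B10*, *AKR1C1*, *AKR1C2*, *GCLC*, *GPX2* and *IDH1*. Of these, *GPX2* passed the filter through HCC1954 only. *AKR1B10*, with at most 11 counts in any library of the other lines, also needed the HCC1954 libraries to pass. The members were also chosen with earlier results of these data known, so the shares are a description. HCC1954 was lower than each other line in 1 gene, *GSTP1* (4.95% of all genes). MDA-MB-231 was higher than each other line in *GSTM1* only (3.1% of all genes) and lower in *AKR1C2* only (4.59%). *GSTM1* passed the filter through MDA-MB-231 only. OVCAR8 was higher in 0 genes (5.77%) and lower in *ABCC3*, *AKR1C3* and *IDH1* (2.73%). SKOV3 was higher in *ABCC3* (5.13%) and lower in *GSTM3* and *MGST1* (3.62%).

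**Figure D2:**
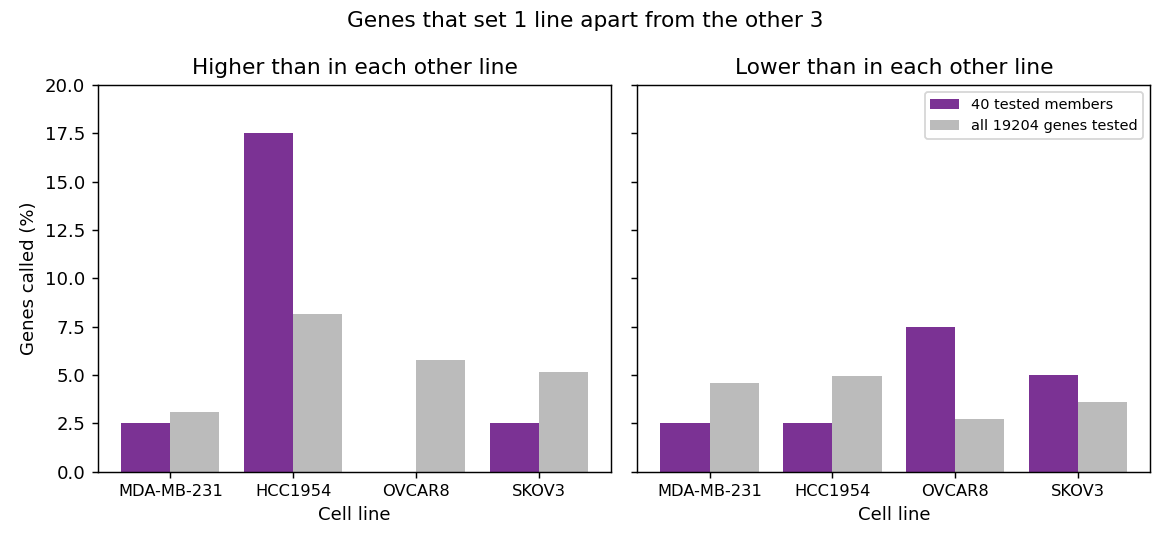
Share of genes called higher (left) or lower (right) in 1 line than in each of the other 3, in percent, for the 40 tested members (purple) and all 19204 genes tested (grey). HCC1954 holds 17.5% of the members on the higher side against 8.13% of all genes, and OVCAR8 holds 0.

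*NFE2L2* itself was expressed in every library and was called different between no lines. In MDA-MB-231 it had 231.4, 151 and 119 CPM, and in HCC1954 146, 160.1 and 153 CPM. OVCAR8 had 83.0, 85.1 and 90.9 CPM and SKOV3 106, 90.7 and 92.0 CPM. The HCC1954 libraries thus lay within the range of the MDA-MB-231 libraries. *KEAP1*, the repressor, was lowest in HCC1954 with 30.0, 26.8 and 40.01 CPM and highest in OVCAR8 with 109.9, 96.4 and 96.2 CPM. MDA-MB-231 had 51.1, 55.8 and 63.0 CPM and SKOV3 78.4, 88.2 and 95.7 CPM, so that HCC1954 overlapped no other line. The log2 fold change of *KEAP1* in HCC1954 vs OVCAR8 was -1.66 (SE 0.13, FDR 3.00e-07).

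The 2 subunits of glutamate-cysteine ligase, which makes the first and rate-limiting step of glutathione synthesis, were highest in different lines. *GCLC*, the catalytic subunit, had 335, 310.5 and 191 CPM in HCC1954. It had 45.6, 31.7 and 33.1 CPM in MDA-MB-231, 33.7, 34.0 and 35.5 CPM in OVCAR8 and 40.7, 34.5 and 36.7 CPM in SKOV3. HCC1954 was above the other lines in every library, and those overlapped each other (HCC1954 vs OVCAR8, log2 fold change 2.99, SE 0.18, FDR 1.81e-08). *GCLM*, the modifier subunit, had 173, 193 and 240.4 CPM in OVCAR8 and 115, 169 and 121 CPM in HCC1954. MDA-MB-231 had 57.1, 57.2 and 63.1 CPM and SKOV3 44.02, 47.4 and 53.7 CPM, and these lines overlapped neither each other nor the first pair. The log2 fold change of *GCLM* in OVCAR8 vs SKOV3 was 2.06 (SE 0.14, FDR 1.13e-07). *GSS*, which completes glutathione, and *GSR*, which reduces its oxidised form, were called in no pair and ran from 69.7 to 178 CPM and from 55.6 to 155 CPM over the 12 libraries.

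Among the glutathione peroxidases, *GPX2* was read almost only in HCC1954. The HCC1954 libraries held 3535, 2488 and 859 counts of *GPX2*, which is 84.2, 57.2 and 24.4 CPM. The other 9 libraries held 1 count in all, in OVCAR8 *SIVA-WT*. With 3 counts as the floor of a library, *GPX2* in HCC1954 EV was at least 1266-fold higher than in MDA-MB-231 EV, at least 1064-fold higher than in SKOV3 EV and at least 1033-fold higher than in OVCAR8 EV. The other 3 peroxidases were called in no pair of lines. *GPX4*, which reduces lipid peroxides in membranes, ran from 97.8 to 239 CPM, *GPX1* from 118 to 217 CPM and *GPX8* from 46.4 to 144 CPM.

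*GSTP1*, the pi class glutathione transferase that conjugates glutathione to many electrophiles, had the opposite pattern. HCC1954 held 0, 1 and 0 counts of *GSTP1*. The other lines held 9301 to 38561 counts, which is 233, 235 and 241 CPM in MDA-MB-231, 1048, 879 and 825 CPM in OVCAR8 and 341, 433 and 461 CPM in SKOV3. *GSTP1* was at least 3265-fold lower in HCC1954 EV than in MDA-MB-231 EV, at least 4768-fold lower than in SKOV3 EV and at least 14663-fold lower than in OVCAR8 EV. The lines did not overlap in this gene, and their order was OVCAR8, SKOV3, MDA-MB-231, HCC1954, although only HCC1954 was called against its neighbour.

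The other cytosolic transferases split the lines in different ways. *GSTA4*, which conjugates 4-hydroxyalkenals formed from oxidised lipids, had 11.8, 12.4 and 12.7 CPM in MDA-MB-231 and 13.7, 12.7 and 3.29 CPM in HCC1954, but 0.353, 0.313 and 0.389 CPM in OVCAR8 and 0.633, 0.873 and 0.760 CPM in SKOV3 (MDA-MB-231 vs OVCAR8, log2 fold change 5.15, SE 0.48, FDR 1.73e-06). *GSTM3* had 68.5, 75.9 and 69.0 CPM in MDA-MB-231, 158, 119 and 53.2 CPM in HCC1954 and 91.2, 69.5 and 78.8 CPM in OVCAR8. In SKOV3 it had 0.924, 0.984 and 0.638 CPM, below every other library (HCC1954 vs SKOV3, log2 fold change 6.95, SE 0.34, FDR 3.95e-09). *GSTM4* separated the breast lines from the ovarian lines, with 28.2, 24.6 and 24.1 CPM in MDA-MB-231 and 28.8, 26.0 and 11.5 CPM in HCC1954 against 5.84, 5.14 and 5.03 CPM in OVCAR8 and 5.09, 5.73 and 4.93 CPM in SKOV3. Its log2 fold change in MDA-MB-231 vs SKOV3 was 2.28 (SE 0.23, FDR 2.84e-06).

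*GSTM1*, which is absent from the genome of many people, was read almost only in MDA-MB-231, with 35.6, 41.05 and 35.1 CPM. HCC1954 held 1, 0 and 1 counts, OVCAR8 3, 1 and 1, and SKOV3 0 in each library. In EV, *GSTM1* was at least 449-fold higher in MDA-MB-231 than in SKOV3. *GSTM2* had 3.53, 4.01 and 2.68 CPM in MDA-MB-231 and 3.70, 3.05 and 3.35 CPM in OVCAR8, above SKOV3 with 1.13, 0.828 and 0.442 CPM and HCC1954 with 0.405, 0.874 and 0.256 CPM (HCC1954 vs OVCAR8, log2 fold change -2.71, SE 0.33, FDR 1.11e-05). The *GSTM* genes are related in sequence, and exons of *GSTM1* and *GSTM2* overlap on the same strand. Reads may thus be split between them, and their values are uncertain. *GSTK1*, a mitochondrial and peroxisomal transferase, ran from 40.4 to 169 CPM and was called once (MDA-MB-231 vs HCC1954, log2 fold change -1.52, SE 0.18, FDR 1.31e-05). *GSTO1*, the omega class transferase, ran from 39.7 to 113 CPM and was called in no pair.

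Of the microsomal transferases, which are bound to membranes, *MGST1* was highest in HCC1954 with 251, 215 and 175 CPM and lowest in SKOV3 with 16.7, 17.0 and 19.0 CPM. MDA-MB-231 had 94.1, 111 and 114 CPM and OVCAR8 75.6, 60.3 and 64.1 CPM, so that none of the 4 lines overlapped (HCC1954 vs SKOV3, log2 fold change 3.60, SE 0.16, FDR 1.58e-09). *MGST3* was lowest in MDA-MB-231, with 26.7 to 27.8 CPM against 79.9 to 81.1 CPM in SKOV3 (MDA-MB-231 vs SKOV3, log2 fold change -1.56, SE 0.10, FDR 5.89e-08). *MGST2* ran from 11.8 to 23.3 CPM and was called in no pair.

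The thioredoxin system, which reduces protein disulphides in parallel with glutathione, differed least. *TXNRD1*, thioredoxin reductase, had 1226, 1108 and 939 CPM in MDA-MB-231, 433, 542 and 635 CPM in HCC1954, 385, 436 and 475 CPM in OVCAR8 and 587, 500.4 and 557 CPM in SKOV3. MDA-MB-231 was above every other library, yet no pair of lines met the threshold of fold change. *TXN* ran from 213 to 583 CPM, and the peroxiredoxins *PRDX1*, *PRDX2* and *PRDX6* from 399 to 1288, from 88.0 to 192 and from 205 to 285 CPM. *SRXN1*, which repairs overoxidised peroxiredoxins, had 0 to 4 counts in every library. Its exons overlap on the same strand with those of ENSG00000270299, a gene at 0 counts in all 12 libraries, and the part of this overlap in the low count was not tested.

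Per exon length (CPM per kilobase of exon, RPKM, with exon lengths of the GENCODE annotation lifted to GRCh37), the most abundant transcripts were those of *PRDX1* and *TXN*, with medians over the 12 libraries of 546 and 279. The medians were 165 for *GSTP1*, 124 for *NQO1*, 105 for *GPX1*, 101 for *PRDX6* and 81.9 for *TXNRD1*, against 19.8 for *KEAP1* and 7.52 for *NFE2L2*. These levels depend on the exon model, since the release behind the counts is not given in the sources used here.

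Genes of NADPH supply and of the pentose phosphate pathway were mostly highest in HCC1954. NADPH is the reductant of glutathione and thioredoxin reductases. *IDH1*, cytosolic isocitrate dehydrogenase, had 413, 405 and 181 CPM in HCC1954, 123, 86.4 and 84.9 CPM in MDA-MB-231, 78.2, 97.6 and 82.8 CPM in SKOV3 and 19.5, 20.2 and 20.8 CPM in OVCAR8. HCC1954 lay above and OVCAR8 below all other libraries (HCC1954 vs OVCAR8, log2 fold change 3.99, SE 0.25, FDR 3.88e-08). *PGD*, an enzyme of the pentose phosphate pathway, had 351 to 622 CPM in HCC1954 and 130.3 to 137 CPM in MDA-MB-231 (log2 fold change of MDA-MB-231 vs HCC1954 -1.88, SE 0.17, FDR 1.02e-06). *ME1*, malic enzyme, differed between HCC1954 and SKOV3 with a log2 fold change of 1.52 (SE 0.16, FDR 3.11e-06). *TKT*, transketolase, was low in OVCAR8, with 274 to 352 CPM against 1014 to 1127 CPM in SKOV3 (log2 fold change -1.81, SE 0.13, FDR 1.45e-07). *TALDO1*, transaldolase, ran from 159 to 321 CPM and was called in no pair.

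*NQO1*, the quinone reductase used widely as a readout of NRF2, had 1288, 1088 and 756 CPM in HCC1954, 446, 466 and 568 CPM in SKOV3, 290.1, 246 and 284 CPM in OVCAR8 and 184, 168 and 172 CPM in MDA-MB-231. The 4 lines did not overlap, and the log2 fold change of MDA-MB-231 vs HCC1954 was -2.57 (SE 0.18, FDR 7.61e-08). *OSGIN1*, a growth inhibitor induced by oxidative stress, had 49.7, 41.4 and 35.0 CPM in HCC1954, 32.3, 19.4 and 17.5 CPM in MDA-MB-231, 6.94, 7.72 and 8.44 CPM in SKOV3 and 4.46, 4.12 and 3.94 CPM in OVCAR8. It was above 17 CPM in both breast lines and under 9 CPM in both ovarian lines (HCC1954 vs OVCAR8, log2 fold change 3.32, SE 0.20, FDR 2.34e-08), and its exons overlap with *MLYCD* on the same strand. *HMOX1*, haem oxygenase, was highest in SKOV3. It had 14.8, 19.2 and 15.4 CPM in HCC1954, 10.3, 12.9 and 11.9 CPM in MDA-MB-231 and 23.3, 20.3 and 22.1 CPM in OVCAR8, but 23.1, 76.5 and 96.9 CPM in SKOV3, where EV lay within the range of OVCAR8 and the transfectants lay above every other library. Its log2 fold change in MDA-MB-231 vs SKOV3 was -2.39 (SE 0.34, FDR 5.63e-05).

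The aldo-keto reductases, which reduce aldehydes, ketones and steroids with NADPH, were all highest in HCC1954. *AKR1B10* had 368, 298 and 127 CPM in HCC1954. It had 0 counts in all 3 OVCAR8 libraries, 2, 1 and 5 counts in MDA-MB-231 and 10, 5 and 11 counts in SKOV3, and in EV it was at least 4513-fold higher in HCC1954 than in OVCAR8. *AKR1C1* had 412, 293 and 104 CPM in HCC1954, 60.6, 45.4 and 56.6 CPM in SKOV3, 1.58, 1.98 and 1.84 CPM in OVCAR8 and 1.58, 0.908 and 0.878 CPM in MDA-MB-231 (MDA-MB-231 vs HCC1954, log2 fold change -7.82, SE 0.43, FDR 1.02e-08). The order of the lines was the same for *AKR1C2*, with 179, 142 and 32.9 CPM in HCC1954, 11.4, 9.78 and 9.15 CPM in SKOV3, 1.55, 1.46 and 1.66 CPM in OVCAR8 and 0.244, 0.151 and 0.0975 CPM in MDA-MB-231. Each line was called against the next in *AKR1C2*, and MDA-MB-231 vs HCC1954 had a log2 fold change of -9.32 (SE 0.57, FDR 2.97e-08). *AKR1C3*, which also makes testosterone and prostaglandin F, had 234, 201 and 51.0 CPM in HCC1954, 125, 105 and 103 CPM in SKOV3, 9.16, 7.27 and 7.26 CPM in MDA-MB-231 and 2.15, 2.09 and 1.95 CPM in OVCAR8. HCC1954 and SKOV3 overlapped in this gene (HCC1954 vs OVCAR8, log2 fold change 6.17, SE 0.42, FDR 6.78e-08). *AKR1C1* and *AKR1C2* are near-identical in sequence, so that the split of reads between them is uncertain.

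**Figure D3:**
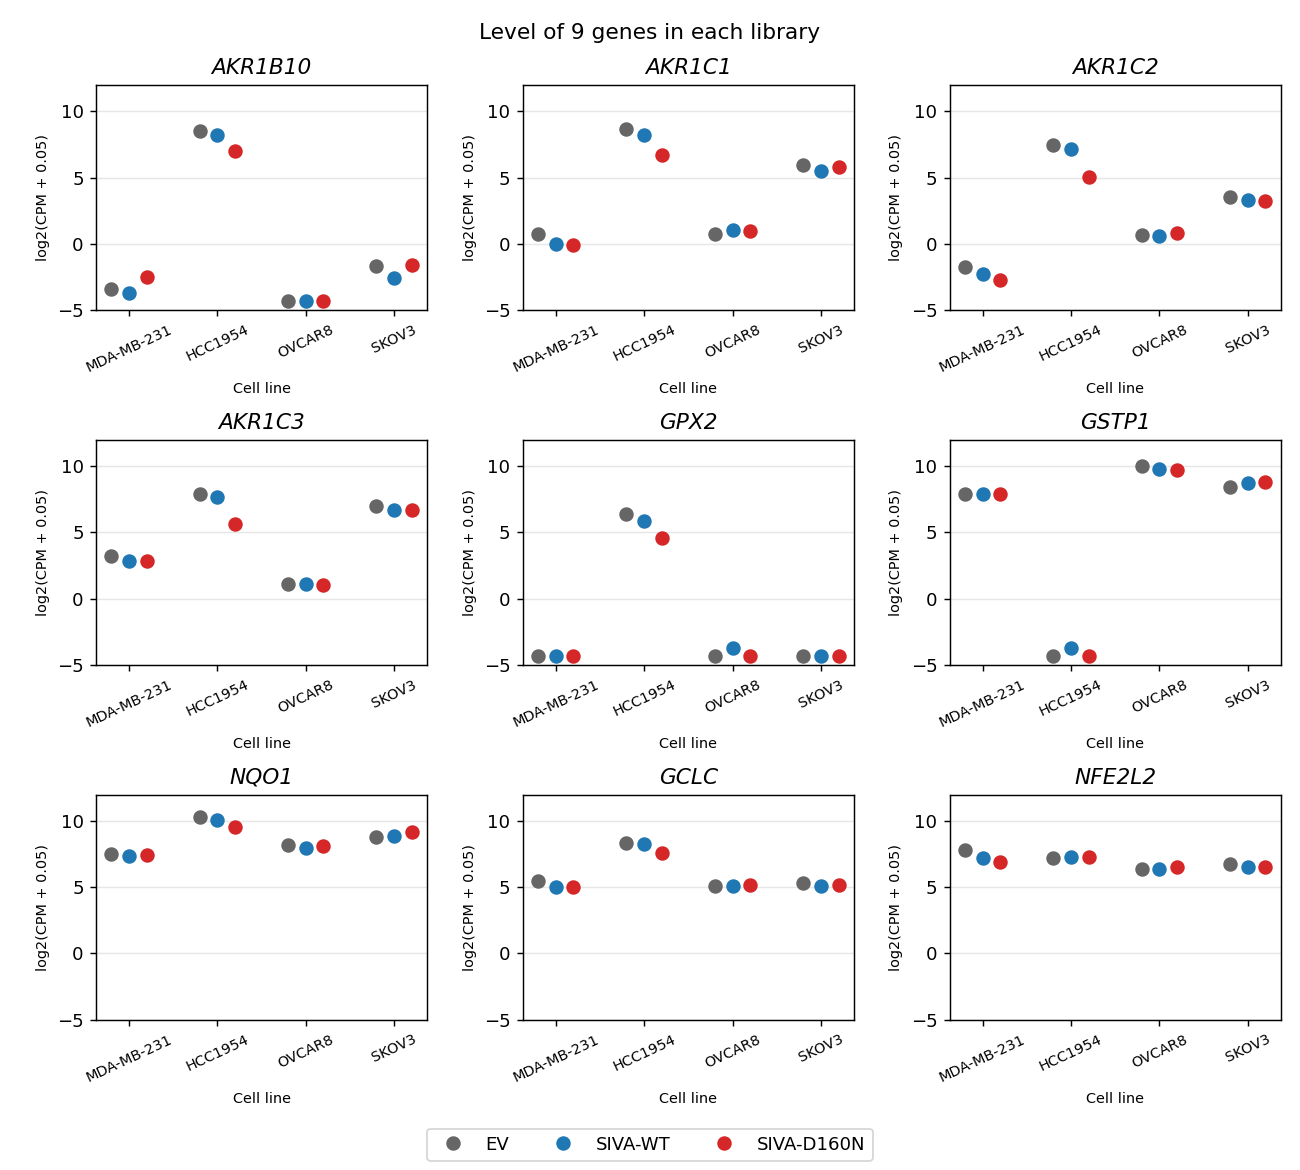
Level of 9 genes as log2(CPM + 0.05) by cell line, with 1 point per library (grey EV, blue *SIVA-WT*, red *SIVA-D160N*). The 4 aldo-keto reductases and *GPX2* are highest in HCC1954 EV and lower in HCC1954 *SIVA-D160N*, and *GSTP1* is at 0 or 1 count in HCC1954. *NFE2L2* is higher in the breast than in the ovarian lines, by less than the threshold of fold change.

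Both transporters export glutathione and glucuronide conjugates. *ABCC2* was highest in HCC1954 with 22.4, 28.1 and 25.5 CPM, followed by 6.39, 4.77 and 4.83 CPM in MDA-MB-231, 3.01, 3.27 and 3.97 CPM in SKOV3 and 1.39, 1.62 and 1.35 CPM in OVCAR8 (HCC1954 vs OVCAR8, log2 fold change 4.12, SE 0.20, FDR 3.09e-09). *ABCC3* was highest in SKOV3 with 75.5, 55.3 and 51.6 CPM, had 13.7, 7.04 and 5.10 CPM in MDA-MB-231 and 10.5, 10.3 and 4.40 CPM in HCC1954, and was near 0 in OVCAR8 with 0.163, 0.104 and 0.182 CPM. MDA-MB-231 and HCC1954 overlapped in *ABCC3*, while SKOV3 and OVCAR8 stood apart on either side (OVCAR8 vs SKOV3, log2 fold change -8.67, SE 0.35, FDR 1.03e-09).

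Further genes of the pathway that are not among the 41 were read in 4 lists, of which 51 genes could be tested between lines. HCC1954 was called higher than each other line in 7 of the 51 (8.13% of all genes), *ALDH3A1*, *BLVRB*, *CBR3*, *GGCT*, *GGT1*, *TRIM16* and *TRIM16L*. Of these, *ALDH3A1*, at 0.172 CPM or less in the other lines, passed the filter through HCC1954 only. HCC1954 was lower than each in 3 (4.95% of all genes), *ABCC4*, *AKR1B1* and *CBR1*. MDA-MB-231 was higher in 5 (3.1%) and lower in 0 (4.59%). OVCAR8 was higher in 3 (5.77%) and lower in 2 (2.73%), and SKOV3 was higher in 0 (5.13%) and lower in 2 (3.62%). Of 20 other NRF2 targets, 10 were higher and 3 lower in HCC1954 than in OVCAR8, where 17.7% of all genes were higher and 16.6% lower. Against MDA-MB-231, 10 were higher and 5 lower in HCC1954 (19.5% and 13.4% of all genes), and against SKOV3, 6 were higher and 4 lower (16.8% and 15.9% of all genes). Exceptions among well known targets were present. *SLC7A11*, the cystine transporter, had a mean of 508 CPM in MDA-MB-231, 214 CPM in SKOV3 and 36.4 CPM in HCC1954. *CBR1*, a carbonyl reductase, and *AKR1B1* had means of 0.00794 and 1.54 CPM in HCC1954, against 34.2 to 139 CPM and 145 to 265 CPM in the other lines.

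Across the 4 lines no member passed the thresholds in any contrast of conditions. The counts were 0 of 38 for *SIVA-WT* vs EV, where 0.00581% of all 17211 genes passed, 0 of 38 for *SIVA-D160N* vs EV, where 0.186% passed, and 0 of 38 for *SIVA-D160N* vs *SIVA-WT*, where 0% passed. DESeq2 also called 0 members in each of the 3 contrasts. The median log2 fold change of the 38 genes was -0.07 in *SIVA-WT* vs EV and -0.14 in *SIVA-D160N* vs EV, against -0.01 over all genes in both, and -0.06 in *SIVA-D160N* vs *SIVA-WT*. A value under 0 was found for 29 of the 38 genes in *SIVA-WT* vs EV and for 29 in *SIVA-D160N* vs EV, which share the EV libraries, and for 27 in *SIVA-D160N* vs *SIVA-WT*. Over all 17211 genes the numbers were 8937, 9011 and 8785.

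At an unadjusted p under 0.05, 10 of 38 genes differed in *SIVA-D160N* vs EV, all of them lower, while 16.4% of all genes differed and 9.38% were lower. They were *ABCC3*, *AKR1B10*, *AKR1C1*, *AKR1C2*, *AKR1C3*, *GCLC*, *GSTM3*, *GSTM4*, *OSGIN1* and *TKT*, and none of these passed the adjustment over all genes. *ABCC3* had the smallest p, with a log2 fold change of -0.99 (SE 0.21, FDR 0.0747), and its libraries were lower than EV in MDA-MB-231, HCC1954 and SKOV3 but not in OVCAR8. *AKR1B10* had -1.32 (SE 0.34, FDR 0.120) and *AKR1C2* -1.08 (SE 0.39, FDR 0.218). *AKR1C3* had -0.76 (SE 0.31, FDR 0.259) and *AKR1C1* -0.76 (SE 0.32, FDR 0.270). The values were -0.55 for *GSTM3* (FDR 0.269), -0.46 for *GSTM4* (FDR 0.275), -0.37 for *OSGIN1* (FDR 0.291), -0.34 for *GCLC* (FDR 0.277) and -0.26 for *TKT* (FDR 0.274). *AKR1B10* had more than 11 counts in HCC1954 only, so that its value rests on that line.

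*SIVA-WT* vs EV gave 1 gene at this level, where 3.46% of all genes differed and 1.57% were lower. It was *ABCC3*, with a log2 fold change of -0.47 (SE 0.21, FDR 1.00). In *SIVA-D160N* vs *SIVA-WT* the 2 genes were *AKR1B10* (log2 fold change -0.97, SE 0.34, FDR 0.539) and *ABCC3* (-0.52, SE 0.21, FDR 0.577), both lower, where 8.33% of all genes differed and 5.49% were lower. By DESeq2 the value of *AKR1B10* had the opposite sign, 0.45 (FDR 0.995). *NFE2L2* and *KEAP1* had log2 fold changes of -0.25 (95% interval -0.58 to 0.08) and 0.20 (-0.04 to 0.45) in *SIVA-D160N* vs EV, and *NQO1* had -0.13 (-0.45 to 0.19). *HMOX1* and *GCLM* had the highest values, 0.53 (-0.11 to 1.17) and 0.25 (-0.01 to 0.52).

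**Figure D4:**
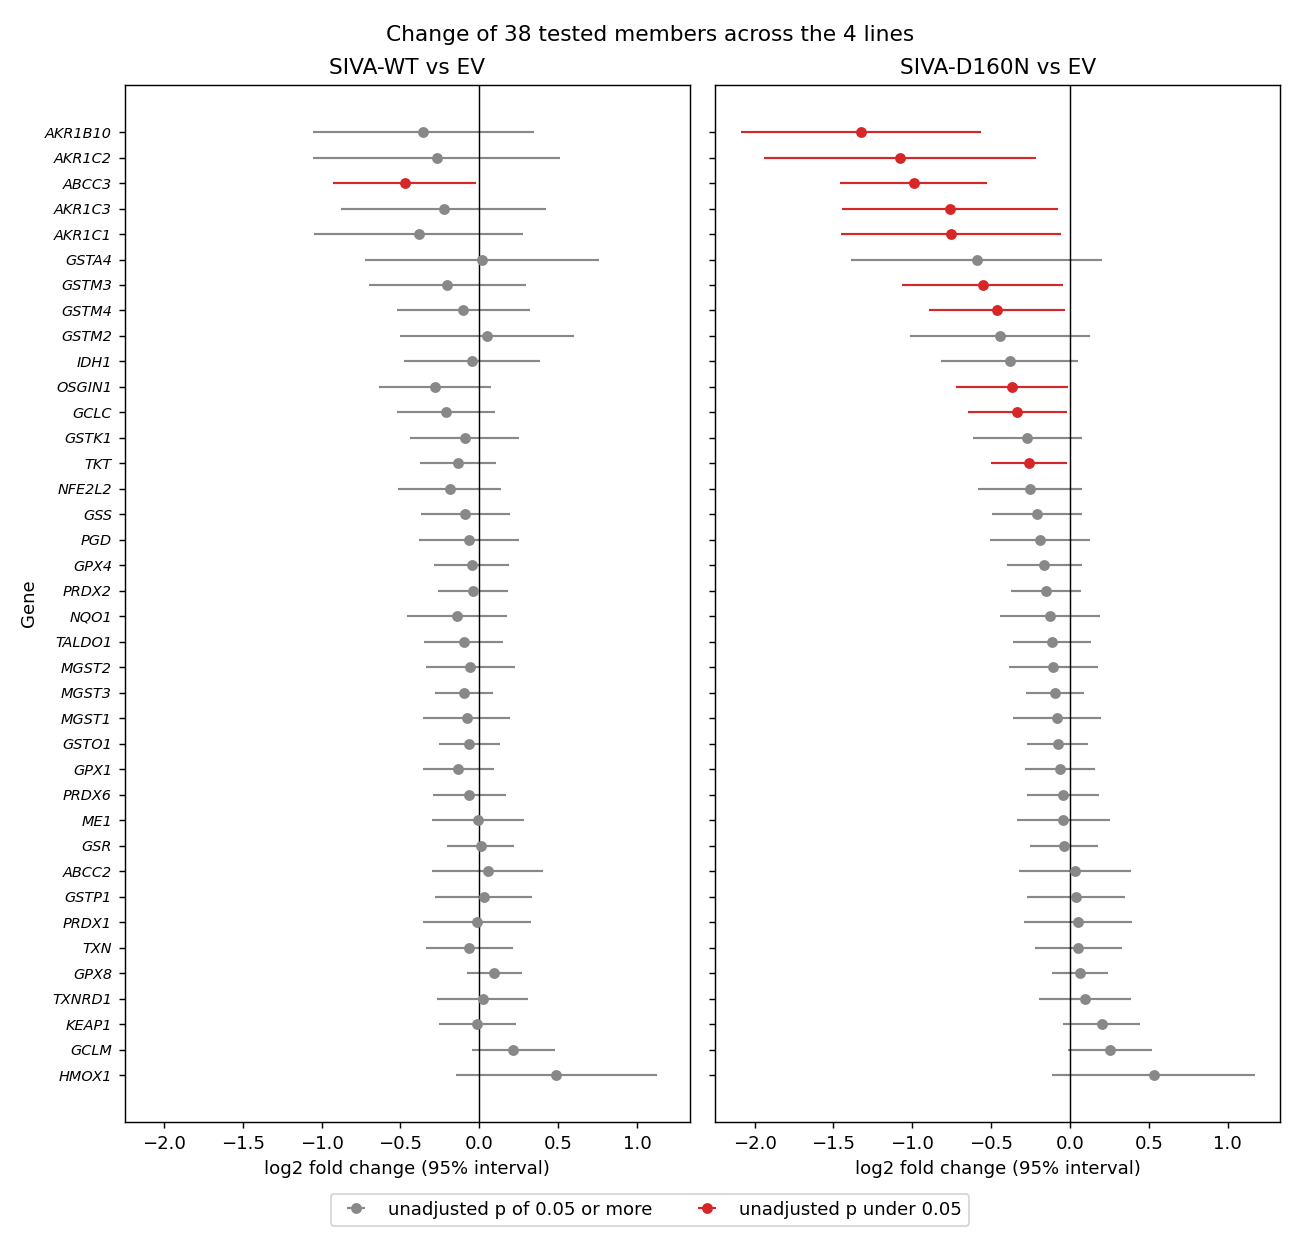
Log2 fold change of the 38 tested genes across the 4 lines in *SIVA-WT* vs EV (left) and *SIVA-D160N* vs EV (right), with 95% intervals of the edgeR fit and with red for an unadjusted p under 0.05. The aldo-keto reductases and *ABCC3* lie lowest in *SIVA-D160N* vs EV, and 0 genes passed an FDR of 0.05.

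The lower values came mostly from HCC1954. When this line was left out, 3 of 37 members had an unadjusted p under 0.05, 1 of them higher and 2 lower, against 11.5% of all genes, and the median was -0.04. In this fit without HCC1954, the log2 fold changes of *AKR1C1*, *AKR1C2* and *AKR1C3* were -0.18, -0.24 and -0.27, and that of *ABCC3* was -0.90 (FDR 0.169). *AKR1B10* had too few counts to be tested without HCC1954. Leaving out the other lines gave 6 of 38 members without MDA-MB-231 (13.5% of all genes) and 15 of 38 without SKOV3 (15.7% of all genes), all lower, with medians of -0.17 and -0.26. It gave 10 of 38 without OVCAR8 (17.6% of all genes), 2 of them higher. *GPX2*, which the filter by condition removed, had a log2 fold change of -1.78 (SE 0.27, FDR 0.0316) when the filter was by line, and this call rests on HCC1954 alone, since the other lines held 1 count.

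Within a line there was 1 library per condition and no replicate check, so the ratios are a description. In HCC1954, *SIVA-D160N* and EV differed by 2-fold or more in 11 of 38 members with enough counts (28.9%), all of them lower in *SIVA-D160N*, where 10.7% of all genes differed and 6.27% were lower. The fall was 5.43-fold for *AKR1C2*, 4.59-fold for *AKR1C3*, 4.10-fold for *GSTA4*, 3.95-fold for *AKR1C1*, 3.45-fold for *GPX2*, 2.97-fold for *GSTM3*, 2.91-fold for *AKR1B10*, 2.5-fold for *GSTM4*, 2.38-fold for *ABCC3*, 2.28-fold for *IDH1* and 2.01-fold for *GSTK1*. The *SIVA-D160N* library also had 11 members at least 2-fold lower than the *SIVA-WT* library of that line, with *GSTM2* in place of *GSTK1*, where 9.4% of all genes differed and 7.06% were lower. *SIVA-WT* vs EV had 1 of 38, *GSTM2* (2.03-fold higher, from 17 to 38 counts), where 4.19% of all genes differed.

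Most of the other members of HCC1954 were lower as well, by less than 2-fold. Of 40 members, 31 were lower and 8 higher in *SIVA-D160N* than in EV. The median log2 ratio was -0.49, against 0 over all genes. *NQO1* fell from 1288 to 756 CPM and *GCLC* from 335 to 191 CPM. Some members did not fall. *NFE2L2* had 146, 160.1 and 153 CPM, *ABCC2* 22.4, 28.1 and 25.5 CPM and *GCLM* 115, 169 and 121 CPM. *TXNRD1* was higher in *SIVA-D160N*, with 635 CPM against 433 CPM in EV. The HCC1954 libraries also differed in lineage markers. Of the mesenchymal markers, *VIM* had 94.9, 159 and 289 CPM and *ZEB1* 0.167, 0.805 and 1.62 CPM, both highest in *SIVA-D160N*, while the other lines had at least 2913 CPM of *VIM*. The epithelial markers *CDH1* (801, 808 and 691 CPM) and *EPCAM* (246, 204 and 233 CPM) varied less, *KRT8* had 2846, 2719 and 3780 CPM, *KRT18* 1911, 1946 and 2769 CPM and *KRT19* 30.6, 21.4 and 13.5 CPM. *ERBB2* was lowest in *SIVA-D160N* with 9158, 7620 and 5706 CPM. This was not particular to HCC1954, since SKOV3 had 12126, 8846 and 5941 CPM of *ERBB2*. The part of the marker differences between the HCC1954 libraries in the lower levels of the 11 genes was not tested. *GSTP1*, abundant in the other 3 lines, was at 0 counts in HCC1954 *SIVA-D160N*. In RNA from bulk cells, fewer cells that express a gene and less RNA per cell cannot be told apart.

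In the other lines few members moved by 2-fold. MDA-MB-231 had 0 of 38 in *SIVA-WT* vs EV (3.92% of all genes) and 1 of 38 in *SIVA-D160N* vs EV (6.65%), where *ABCC3* was 2.68-fold lower. *AKR1C1* and *AKR1C2* were 1.75-fold and 1.996-fold lower there, the second of them from 11 to 4 counts. OVCAR8 had 0 of 36 in *SIVA-WT* vs EV (2.39%) and 0 of 36 in *SIVA-D160N* vs EV (2.76%). SKOV3 had 1 of 38 in *SIVA-WT* vs EV (5.4%), where *HMOX1* was 3.30-fold higher. In *SIVA-D160N* vs EV of SKOV3 there were 2 of 38 (8.58%), *HMOX1*, which was 4.18-fold higher, and *GSTM2*, which was 2.41-fold lower, from 43 to 18 counts. The *HMOX1* counts were 877, 3421 and 3950, so that both transfectants of SKOV3 lay above its EV library.

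**Figure D5:**
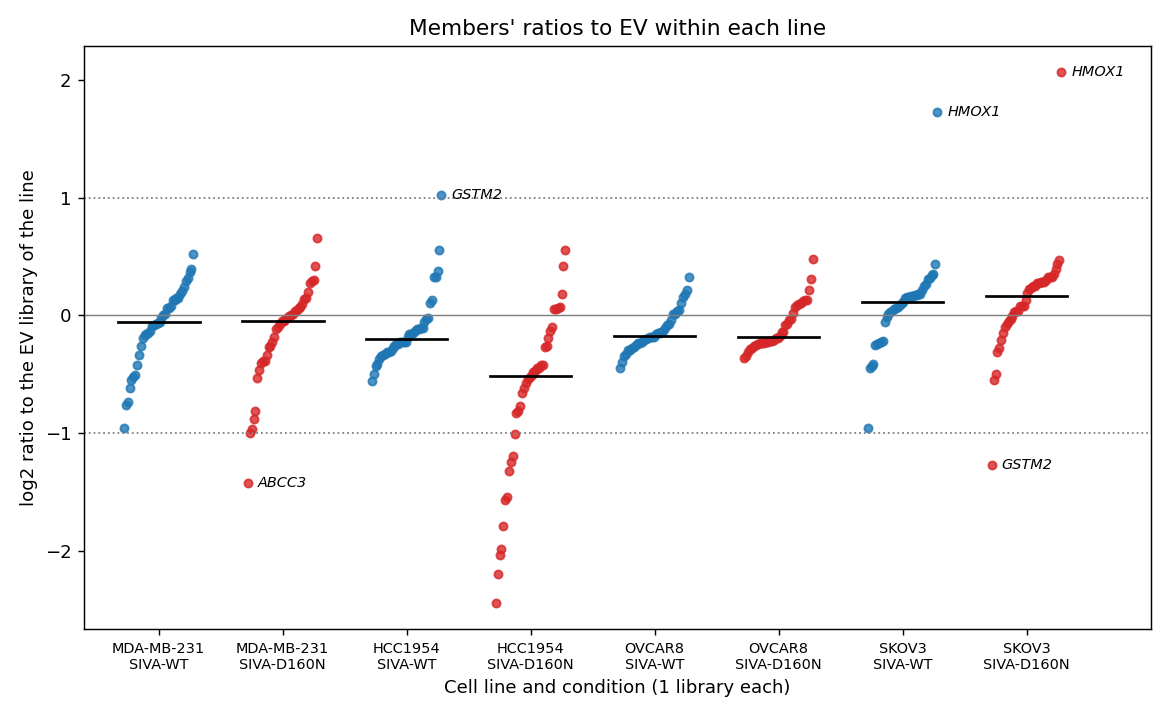
Log2 ratio of each member to the EV library of its line (blue *SIVA-WT*, red *SIVA-D160N*), with 1 point per member that had enough counts, black bars at the medians and dotted lines at 2-fold. HCC1954 *SIVA-D160N* has 11 members under the lower dotted line, and SKOV3 has *HMOX1* above the upper one in both transfectants.

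Whether the effect of *SIVA-D160N* differed between the ovarian and the breast lines was tested as an interaction. No member of 38 passed an FDR of 0.05, where 0.0174% of all genes did, while DESeq2 called *AKR1C2*. At an unadjusted p under 0.05 there were 8 members, all with a higher value in the ovarian lines, where 5.9% of all genes differed and 3.29% were higher. *AKR1C2* had the largest difference, 2.22 on the log2 scale (SE 0.30, FDR 0.0775), followed by *AKR1C1* with 1.67 (SE 0.40, FDR 0.428). *IDH1* (0.92), *ABCC3* (0.86), *OSGIN1* (0.77), *ME1* (0.65), *GCLC* (0.59) and *NQO1* (0.58) had FDR values of 0.745 to 0.838. Each tissue has 2 lines, and without HCC1954 the difference of *AKR1C2* was 1.12 (FDR 0.795) and that of *AKR1C1* was 0.83 (FDR 0.736). Without SKOV3 they were 2.48 (FDR 0.828) and 1.85 (FDR 0.959).

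Among the genes of the 4 other lists, 0 of 50 tested passed the thresholds in the contrasts of conditions. In *SIVA-D160N* vs EV, 5 were higher and 6 lower at an unadjusted p under 0.05, where 16.4% of all genes differed and 9.38% were lower, and the median log2 fold change was -0.12. The 7 genes of cysteine supply and glutathione turnover had the lowest median, -0.61, with 2 of 7 lower at that level and 0 higher.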

How the data were processed

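RNA sequencing of 12 libraries, 3 from each of 4 established cancer cell lines, was analysed. Per the submitters' processing notes, stranded reads were mapped with STAR 2.5.3a to GRCh38, and the authors deposited raw counts for 57187 genes. The annotation release and the strand setting of the counts are not given in the sources used here. A deposited table of normalised values was not used, and 0 columns of the count table were left without a library.

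The fits used edgeR 4.0.16 under R 4.3.3 (quasi-likelihood, legacy = FALSE, TMM), with terms for line and condition over all 12 libraries. filterByExpr by condition kept 17211 genes for the contrasts of conditions and by line kept 19204 genes for the pairs of lines. The interaction model added condition by tissue. A call needed a log2 fold change of 1.5 or more in either direction beside an FDR under 0.05, and only the latter for the interaction. Libraries of 1 line were set side by side as log2 CPM ratios (prior count 2) for genes that reached 10 counts in either of them. The fits were tested on simulated data. DESeq2 1.42.0, RLE scaling, the legacy fit, other filters, thresholds and prior counts, the fit without the line and fits without each line or condition were alternatives. Figures used matplotlib 3.10.9 in Python 3.11.15.

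The line is the source that the 3 libraries share, so it was the replicate block of the fit. Deviations from the condition mean correlated at 0.934 to 0.972 between libraries of 1 line and at -0.460 to -0.186 between lines. Subtracting the mean of the lines by itself makes the values between lines negative on average, so their sign has no meaning. Without the block, 0 genes in place of 32 were called in *SIVA-D160N* vs EV and 0 in place of 1 in *SIVA-WT* vs EV.

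The members and the lists were chosen with earlier results of these data known. All 41 members were accounted for. Full statistics were given in a contrast of conditions for an unadjusted p under 0.05, and in the pairs of lines for the called pair with the largest absolute log2 fold change. Levels in each library, as CPM or counts, were given for the 20 members with the widest range of line means and for *NFE2L2*, *KEAP1*, *NQO1*, *HMOX1*, *GCLC*, *GCLM* and *TXNRD1*. Of the other lists, *SLC7A11* was named after its values were seen. *CBS*, which has 2 rows, was left out.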

Additional observations from a re-analysis of the deposited data

Results flagged for a closer look

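In sets of 4 lines, 1 library lay far from the other 3 in 23 of 196 sets of log2 ratios or levels by Dixon's criterion at the 95% level. Chance would give about 9.8 if the sets were independent. They are not, since each gene enters once per condition and the 2 contrasts of ratios share the EV libraries. The 2 numbers can thus not be weighed against each other. Among the 76 sets of log2 ratios there were 6. In *SIVA-D160N* vs EV, HCC1954 lay below the other lines in *AKR1C3* (-2.20, others -0.33 to -0.14), *GSTA4* (-2.03, others 0.10 to 0.25), *GSTM4* (-1.32, others -0.23 to -0.05) and *GSR* (-0.42, others 0.06 to 0.13), and SKOV3 lay above them in *HMOX1* (2.06, others -0.07 to 0.20). In *SIVA-WT* vs EV, SKOV3 lay above the others in *GSTM4* (0.17, others -0.19 to -0.15).

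The other 17 were levels, given here as log2 CPM for EV, *SIVA-WT* and *SIVA-D160N*. HCC1954 was far above the other lines in *GCLC* (8.39, 8.28 and 7.58) and *GPX2* (6.40, 5.84 and 4.61) and far below them in *GSTP1* (-4.33, -3.78 and -4.33). MDA-MB-231 was far above in *GSTM1* (5.16, 5.36 and 5.13), and SKOV3 was far below in *GSTM3* (-0.039, 0.048 and -0.54). In a single condition, HCC1954 was far above in *AKR1B10* in *SIVA-WT* (8.22, others -4.33 to -2.63) and SKOV3 was above in *PRDX6* in *SIVA-D160N* (8.002, others 7.85 to 7.87). The value -4.33 stands for 0 counts.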

How the results depend on the processing

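The number of members called between lines stayed within 1.5 times in all 6 pairs under every alternative run. Members called in *SIVA-D160N* vs EV were 0, but 1 (*GPX2*) with all genes kept and 1 with the filter by line. Genes called in that contrast were 32, and 152 with all genes kept, 109 with the filter by line, 12 by DESeq2, 1 by the legacy fit, 0 without the replicate block, and 8 to 108 when each line was left out in turn (8 without MDA-MB-231 or HCC1954, 108 without OVCAR8). In *SIVA-WT* vs EV, the 1 gene became 2 with all genes kept, 0 by the legacy fit, 0 without the block and 0 to 1 with a line left out (0 without MDA-MB-231, HCC1954 or SKOV3). In *SIVA-D160N* vs *SIVA-WT*, the 0 became 40 with all genes kept, 4 by DESeq2, 2 with the filter by line, 1 with RLE scaling and 0 to 8 with a line left out (8 without SKOV3). In the interaction, 3 genes became 12 by DESeq2, 1 by the legacy fit and 0 to 2 with a line left out (added after seeing the data), and the members called became 1 by DESeq2 (*AKR1C2*, 2.19, FDR 0.0354, against 0.0602 to 0.828 under the others). Within lines, the MDA-MB-231 *SIVA-D160N* count of 1 became 6 at 1.5-fold, 2 with a prior count of 0.5 and 2 with RLE scaling, the MDA-MB-231 *SIVA-WT* count of 0 became 4 at 1.5-fold, and the SKOV3 *SIVA-WT* count of 1 became 2 at 1.5-fold and 2 with the prior count of 0.5. Members with an unadjusted p under 0.05 ranged from 0 to 16 in *SIVA-D160N* vs EV (0 without the block, 3 without HCC1954, 16 without SKOV3 when every member that passed the filter there is counted) and from 2 without SKOV3 to 15 without MDA-MB-231 in the interaction. *ME1* and *GSTK1* fell under the fold threshold of their pair without the EV libraries (1.31 and -1.29) or the *SIVA-WT* libraries (1.48 and -1.45), and *GSTK1* with all genes kept (-1.48). *AKR1B10* in *SIVA-D160N* vs *SIVA-WT* was -0.97 but 0.45 by DESeq2 (FDR 0.995). The causes were not tested. Each line gave 1 library per condition, so ratios within a line have no replicate check, and genes near 3 counts cannot be told from absent at this depth.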
